A study of Mus musculus with 12 samples.

Results

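Insulin and the insulin-like growth factors (IGFs) reach a muscle cell through a small set of entry genes: the ligands Igf1 and Igf2, the receptors Igf1r and Insr, the adaptors Irs1, Irs2 and Grb10, and the binding proteins Igfbp3, Igfbp4 and Igfbp5. They were followed here in mouse quadriceps on every array probe whose gene name, as written in the scanner output, equals one of these 10 symbols. The rule gave 24 of 41174 gene probes, for 9 of the 10 genes. No probe carried the name Irs2, and its expression was not analysed here. A test was made for the 21 of the 24 probes that the scanner marked as well above background on 6 or more arrays. The lead probe of a gene is its probe with the highest mean over the 12 arrays.

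The animals were 13-week-old male C57BL/6J mice. In the exercised group 6 mice had run on a motorized treadmill for 4 weeks, and RNA was taken from the quadriceps 3 hours after the last bout. The other 6 mice were sedentary controls. Each mouse gave 1 one-colour Agilent array, so the spread between arrays holds the spread between animals. The comparison asks how these genes differ between trained and sedentary muscle, and the design has no trained mice at rest, so the last bout and the weeks of training before it cannot be told apart.

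Both ligands act on receptor tyrosine kinases. The IGF-1 receptor and the insulin receptor phosphorylate adaptor proteins of the IRS family, which pass the signal to PI3-kinase, AKT and mTORC1 and to the RAS-MAPK cascade, and AKT keeps FOXO transcription factors out of the nucleus. IGF-binding proteins hold the ligands outside the cell, and GRB10 binds the active receptors and dampens them. In muscle this pathway drives glucose uptake, protein synthesis and fibre growth.

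The Grb10 probes are shown because they read separate stretches of 1 gene and gave different results, and the leading pair of Igf1 probes because they belong to different transcript records and gave the same one. The first 30 of the 60 bases of each probe are given as the array files list them, 5′ to 3′, with no base marked.
Grb10 A_52_P40363: ggcttcaagtactaatgaacaacgatatta
Grb10 A_51_P187151: aagattaaaaacttccagatcttaccttgc
Grb10 A_52_P115787: tttctaaatgacgactccgtgtaaccacct
Igf1 A_51_P147942: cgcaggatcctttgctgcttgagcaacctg
Igf1 A_52_P536434: tggatgagtgttgcttccggagctgtgatc

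On genome build mm9 these Grb10 probes lie on the minus strand at chr11:11870574-11870633, chr11:11833580-11834228 and chr11:11830965-11831024, in the order of transcription, and span 39.669 kb. The second covers a genomic stretch longer than the probe itself. The Igf1 probes lie on the plus strand at chr10:87393516-87393575 and chr10:87376418-87376477. Whether a probe lies in a coding exon or a UTR was not analysed here. GC content of the 24 probes ran from 35.0% to 55.0%, with a median of 41.7% against 40.0% over all gene probes.

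Levels are log2 values of the processed spot signal relative to the 75th percentile of the same array, so that 0 is that percentile and a difference of 1 is a 2-fold change. A probe was called at an adjusted p below 0.05 in limma, with Benjamini-Hochberg adjustment over all 22916 probes tested. The 75th percentile lay between 179 and 230 intensity units on exercised and between 167 and 237 on sedentary arrays, and no spot was saturated. Slide 1 carried 1 exercised mouse and 3 sedentary mice, slide 2 carried 3 exercised mice and 1 sedentary mouse, and the third slide held 2 of either group. All 10 muscle fibre markers (among them Acta1, Ckm and Ttn) passed the filter, with summed linear levels of 6869 to 8437 times the 75th percentile in exercised and 7902 to 8689 in sedentary mice. Of the 4 liver markers with a probe, Alb, Apoa1 and Ttr were not well above background on any array. In whole muscle, fewer cells of a type and less RNA per cell cannot be told apart.

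No gene of the set was shown to differ at its lead probe between exercised and sedentary mice. None of the 9 lead probes was called, and 1 of the 21 tested probes was, against 3.32% of all probes tested. That probe reads Grb10 and was higher in exercised mice, as 1.81% of all probes were, and 0 of the 21 were lower, against 1.51% of all. With slide as a block 0 of the 21 were called, and 1.93% of all. Of the 9 lead probes 6 lay above 0 in the difference exercised minus sedentary, with a median of 0.10, where the median over all probes was -0.02. Across the 21 probes 2 had an unadjusted p below 0.05, the Grb10 probe and the lead probe of Igfbp4, against 15.7% of all probes. Groups without overlap were found for 0 of the 21 and for 2.89% of all probes.

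**Figure D1:**
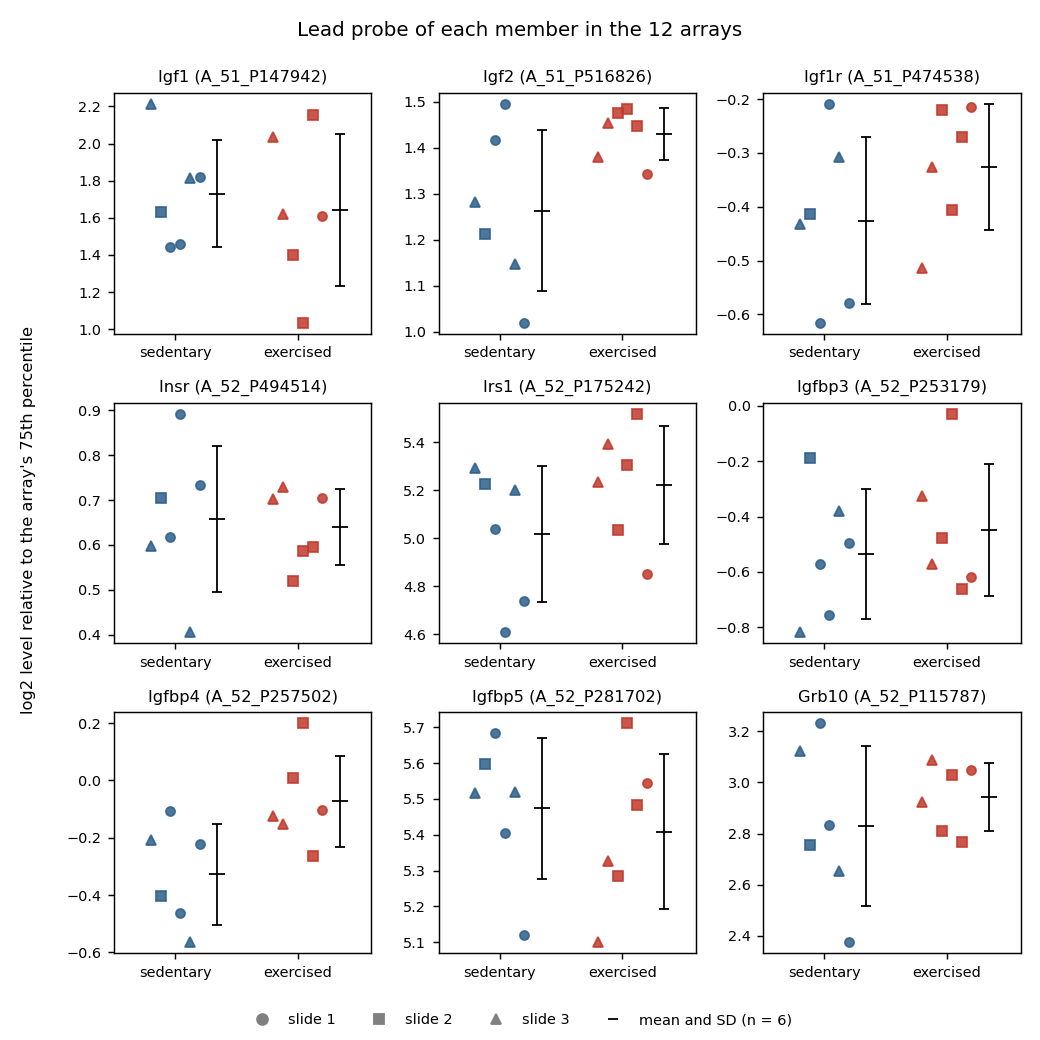
Log2 level relative to the array's 75th percentile (vertical axis, scaled per panel) of the lead probe of each gene in the 6 sedentary and 6 exercised mice, with mean and SD; symbols mark the slide. The groups overlap in all 9 panels.

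Igf1, the growth factor that muscle makes for local use, did not pass the test on any of its 4 probes. Its lead probe ran from 1.04 through a median of 1.62 to 2.15 in exercised mice and from 1.44 through 1.72 to 2.21 in sedentary mice. The sedentary range lay almost wholly inside the exercised one, and only 2 of 6 exercised mice were above the sedentary mean. The difference was -0.09 (95% interval -0.50 to 0.32; SE 0.19; limma adjusted p = 0.880), and it was 0.04 on slide 1, -0.10 on slide 2 and -0.19 on slide 3. The means were 1.64 ± 0.41 (SD, n = 6) and 1.73 ± 0.29 (SD, n = 6), so that mice of 1 group spread more than the groups differed.

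The other Igf1 probes pointed the same way without passing. The difference was -0.11 (-0.53 to 0.31, adjusted p = 0.849 in limma) for the probe of the second transcript record and -0.28 (-0.70 to 0.15, adjusted p = 0.566) for the probe at chr10:87396567-87396626. The lead probe and the probe of the second record rose and fell together from mouse to mouse: over the 12 arrays Pearson's r was 0.957 (permutation p = 1e-05, the smallest that 100000 resamples can give; 0.00018 after adjustment over 18 probe pairs) and Spearman's rho was 0.902 (permutation p = 0.00013; adjusted 0.00234). Without the 2 arrays farthest from the median r was 0.920, and after slide means were removed it was 0.967. The spread of Igf1 between mice was thus measured alike by both sequences printed above. The probe at chr10:87396567-87396626 followed the lead probe less closely (r = 0.614, permutation p = 0.0334, adjusted 0.12). For the fourth probe r with the lead probe was -0.0069 (permutation p = 0.983, adjusted 0.983). The fourth probe, from the record AK050118 at chr10:87325382-87325441, was well above background on 4 exercised and 5 sedentary arrays, and its difference of -0.60 had an interval from -1.88 to 0.67 (adjusted p = 0.696).

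Igf2, the fetal growth factor that is expressed from the paternal allele, was not called, and both of its probes had differences above 0. The lead probe, at chr7:149836673-149836709 on the minus strand, ran from 1.34 through a median of 1.45 to 1.48 in exercised and from 1.02 through 1.25 to 1.50 in sedentary mice. All 6 exercised mice were above the sedentary mean, and 4 of 6 sedentary mice were below the lowest exercised mouse, but the highest sedentary mouse was above them all. The difference was 0.17 (-0.01 to 0.34; SE 0.08; limma adjusted p = 0.349), or 1.12-fold (0.994 to 1.27). It was 0.03 on slide 1, 0.25 on slide 2 and 0.20 on slide 3. The second probe gave 0.17 (-0.07 to 0.41, adjusted p = 0.511), and both followed each other over the 12 arrays with r = 0.909 (permutation p = 5e-05, adjusted 0.00045) and rho = 0.797 (permutation p = 0.00271, adjusted 0.0244). Without the 2 farthest arrays r was 0.863, and after slide means were removed it was 0.950.

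The receptor genes were not called on any probe. Igf1r encodes the receptor for both IGFs. Its lead probe, at chr7:75376998-75377057 on the plus strand, ran from -0.51 through -0.30 to -0.21 in exercised and from -0.62 through -0.42 to -0.21 in sedentary mice. These ranges nearly coincided, and the difference was 0.10 (-0.08 to 0.28, limma adjusted p = 0.641), with 0.25 on slide 1, 0.11 on slide 2 and -0.05 on slide 3. The other 3 probes of Igf1r gave -0.13 (adjusted p = 0.582), -0.0037 (adjusted p = 0.996) and -0.35 (adjusted p = 0.600), the last from the record AK044980 and well above background on 3 arrays of each group. The lead probe and the probe at chr7:75371556-75371615 differed in their training difference by 0.23 (two-sided exact permutation p = 0.0606 over all 924 splits of the arrays, adjusted 0.545), so no difference between the probes was shown. Over the 12 arrays their levels had r = 0.081 (permutation p = 0.805, adjusted 0.983).

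Insr, the insulin receptor gene, had the smallest difference among the lead probes. The probe, at chr8:3151667-3151726 on the minus strand, ran from 0.52 through 0.65 to 0.73 in exercised and from 0.40 through 0.66 to 0.89 in sedentary mice. All exercised values lay inside the sedentary range. The difference was -0.02 (-0.19 to 0.16, limma adjusted p = 0.947), which is an interval of 0.897 to 1.14 on the fold scale, sedentary over exercised. It turned to 0.03 with slide as a block, and was -0.04, -0.14 and 0.21 on slides 1, 2 and 3. The second Insr probe was well above background on 2 exercised and 3 sedentary arrays and was not tested. Its levels ran from -4.62 to -3.71 and from -4.30 to -3.75.

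Irs1, the adaptor that couples both receptors to PI3-kinase, was not called. Its lead probe, at chr1:82229692-82229751 on the minus strand, ran from 4.85 through 5.27 to 5.52 in exercised and from 4.61 through 5.12 to 5.30 in sedentary mice. In 5 of 6 exercised mice the level was above the sedentary mean, and 3 were above the highest sedentary mouse. The difference was 0.21 (-0.11 to 0.52; SE 0.14; limma adjusted p = 0.557). With slide as a block it was 0.06, and it was 0.05, 0.06 and 0.07 on slides 1, 2 and 3, so within slides the groups lay closer than over all arrays. The second Irs1 probe gave -0.06 (-0.46 to 0.35, adjusted p = 0.928). Over the 12 arrays its level had r = -0.176 with the lead probe (permutation p = 0.592, adjusted 0.969), and r was 0.824 without the 2 farthest arrays.

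Grb10, the adaptor that restrains both receptors, gave the only call. At its lead probe exercised mice ran from 2.77 through 2.98 to 3.09 and sedentary mice from 2.37 through 2.79 to 3.23. The exercised values lay inside the sedentary range, and the difference was 0.12 (-0.17 to 0.40, limma adjusted p = 0.745). At the upstream probe A_52_P40363 exercised mice ran from -1.49 through -1.20 to -0.995 and sedentary mice from -1.99 through -1.71 to -1.48. Of the 6 exercised mice 5 were above every sedentary mouse, and the ranges touched only between the lowest exercised and the highest sedentary mouse. The means were -1.24 ± 0.19 (SD, n = 6) and -1.71 ± 0.17 (SD, n = 6). The difference was 0.47 (0.24 to 0.70; SE 0.11; limma adjusted p = 0.0288), which is 1.39-fold (1.18 to 1.62).

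The call of this Grb10 probe depended on the slide and on single arrays. With slide as a block the difference was 0.43 and the adjusted p was 0.113, and it was 0.69, 0.41 and 0.26 on slides 1, 2 and 3, so exercised mice were higher on each slide. When each array was left out in turn the call held in 5 of 12 cases, with adjusted p from 0.0247 to 0.0661. It was lost without the exercised mice 1, 3 or 5 of title set 2, without the sedentary mouse 6 of set 1, or without the sedentary mice 2, 4 or 5 of set 2. Median scaling (adjusted p = 0.0560) and the absence of a filter on dim probes (0.0824) ended it too. The difference between the training differences of this probe and of the lead probe was tested by itself and was -0.35, lead minus upstream (two-sided exact permutation p = 0.0519, adjusted 0.545 over the 18 pairs), so the probes were not shown to differ. Over the 12 arrays their levels had r = 0.219 (permutation p = 0.498, adjusted 0.942) and rho = 0.196 (permutation p = 0.543, adjusted 0.735), and r was 0.503 without the 2 farthest arrays and 0.296 after slide means were removed. The middle probe was well above background on 3 exercised and 1 sedentary array and was not tested. Its levels ran from -5.60 to -3.93 in exercised and from -5.81 to -4.22 in sedentary mice.

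**Figure D2:**
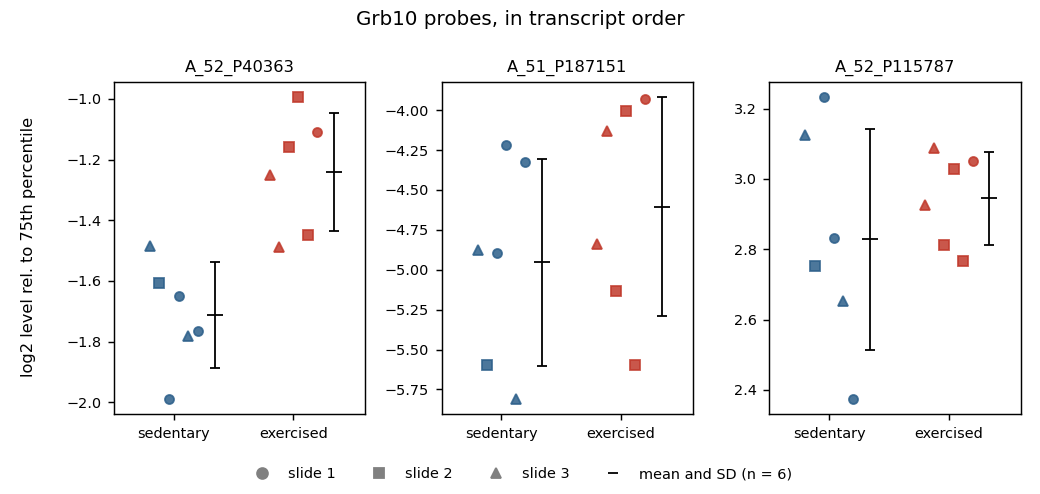
Log2 level relative to the array's 75th percentile (vertical axis, scaled per panel) at the 3 Grb10 probes, from the start to the end of the transcript, in sedentary and exercised mice, with mean and SD (n = 6); symbols mark the slide. Only the first probe was called (difference 0.47), and there 5 of 6 exercised mice lie above every sedentary mouse.

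Among the binding proteins Igfbp4 was nearest to a call. IGFBP4 holds IGFs in the tissue and is cut by the protease PAPP-A, which frees the ligand. Its lead probe, at chr11:98913334-98913393 on the plus strand, ran from -0.26 through -0.11 to 0.20 in exercised and from -0.56 through -0.31 to -0.11 in sedentary mice. All 6 exercised mice were above the sedentary mean and all 6 sedentary mice below the exercised mean, while the ranges overlapped. The difference was 0.26 (0.04 to 0.47; SE 0.10), which is 1.19-fold (1.03 to 1.38), and it did not pass after adjustment (limma adjusted p = 0.208; 0.319 with slide as a block). It was 0.16, 0.39 and 0.25 on slides 1, 2 and 3. The second Igfbp4 probe gave 0.20 (-0.02 to 0.43, adjusted p = 0.380). Over the 12 arrays the levels of both had r = 0.854 (permutation p = 0.00055, adjusted 0.0033) and rho = 0.664 (permutation p = 0.0219, adjusted 0.0987). Without the 2 farthest arrays r was 0.691, and it was 0.861 after slide means were removed.

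Igfbp3, the main carrier of IGFs in serum, was not called. Its lead probe, at chr11:7106594-7106653 on the minus strand, ran from -0.66 through -0.52 to -0.03 in exercised and from -0.82 through -0.53 to -0.19 in sedentary mice. The medians nearly coincided, and the difference was 0.09 (-0.19 to 0.37, limma adjusted p = 0.819). With slide as a block it was -0.0045, and it was -0.01, -0.20 and 0.15 on slides 1, 2 and 3. A second probe, well above background on 5 exercised and 4 sedentary arrays, gave -0.28 (-0.77 to 0.20, adjusted p = 0.612). The third, from the record AK045003, was not well above background on any array.

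Igfbp5, the binding protein that myoblasts secrete as they differentiate, was not called either. Its lead probe, at chr1:72904829-72904888 on the minus strand, ran from 5.10 through 5.41 to 5.71 in exercised and from 5.12 through 5.52 to 5.68 in sedentary mice. Both groups covered the same range, with a difference of -0.07 (-0.32 to 0.19, limma adjusted p = 0.851). On slide 1 it was 0.14, on slide 2 -0.10 and on slide 3 -0.30. The second probe was lower in all 6 exercised mice than the sedentary mean and gave -0.23 (-0.49 to 0.02, adjusted p = 0.378).

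**Figure D3:**
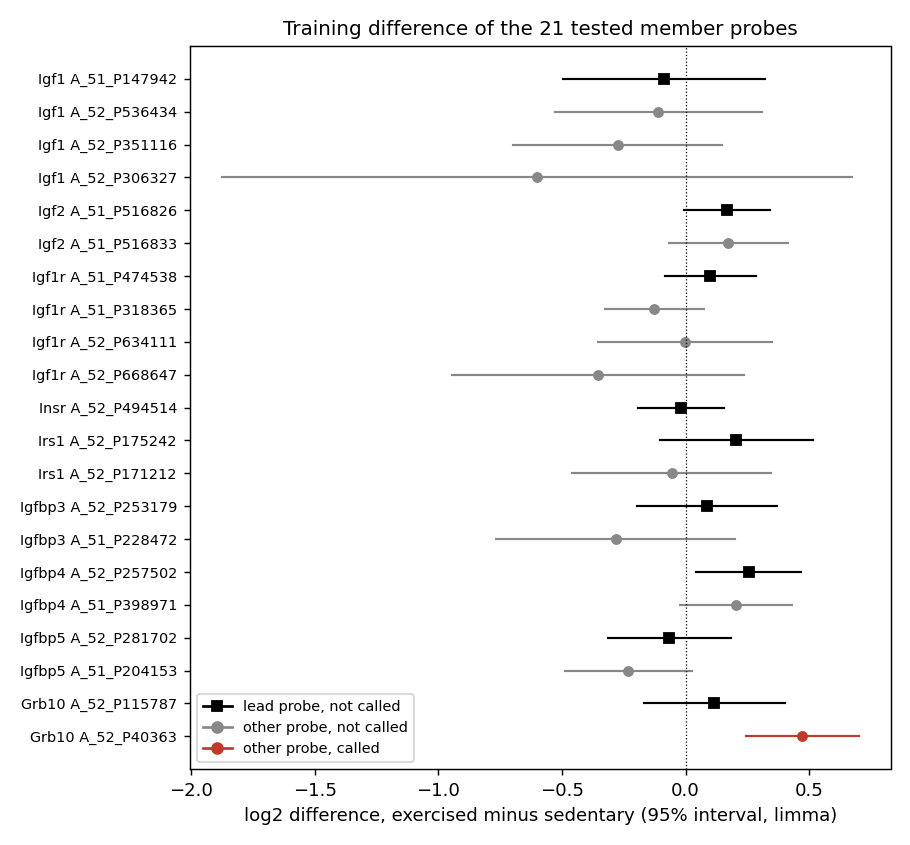
Difference in log2 level, exercised minus sedentary (horizontal axis), with 95% intervals from limma for the 21 tested probes; squares are lead probes and the red point is the only called probe. The interval of the lead probe of Igfbp4 (0.04 to 0.47) and that of the called Grb10 probe (0.24 to 0.70) lie above 0.

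The titles number the mice within sets 1 and 2, whose meaning is not stated. The training difference was not shown to differ between these sets for any of the 21 probes (limma interaction, adjusted p from 0.567 to 0.997; 0 of all 22916 probes called, 1932 at an unadjusted p below 0.05). Set 1 held only the exercised mice 1 and 5, which limits this test. Without either of them it rests on 1 exercised mouse of that set, and calls from those fits are not read. With any other array left out, the lowest adjusted p over all probes was 0.176 or above (limma interaction).

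Other genes of the pathway were taken as 6 lists and read by their lead probes. Of 98 listed genes 88 were tested, and 1 was called higher and 1 lower (2.27%), against 3.32% of all probes tested. The median difference was -0.01, where the median over all probes was -0.02, and 42 of the 88 lay above 0. No gene was called among the 11 tested genes of a list of ligands, binding proteins, processing enzymes, the receptors Igf2r and Insrr and the mRNA-binding protein gene Igf2bp2 (median 0.11), 22 receptor-proximal adaptors and phosphatases (-0.01), 23 genes of the PI3K-AKT branch (0.01) or 16 of the mTORC1 branch (-0.01).

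The called genes were Foxo1 and Spry2. Foxo1 encodes a forkhead transcription factor that insulin signalling switches off. It ran from 2.87 through 3.49 to 3.61 in exercised and from 1.43 through 1.56 to 1.69 in sedentary mice. The groups were far apart, and the difference was 1.82 (1.56 to 2.08; SE 0.12; limma adjusted p = 3.7e-05), which is 3.53-fold, with 1.94, 1.76 and 2.02 on slides 1, 2 and 3. Its second probe gave 1.88 (adjusted p = 0.00033). Spry2, an inhibitor of receptor signalling to RAS and MAPK, ran from -0.26 through -0.13 to -0.05 in exercised and from 0.07 through 0.22 to 0.50 in sedentary mice. The groups did not overlap, and Spry2 fell by 0.41 on the log2 scale (SE 0.08; limma adjusted p = 0.0146; 0.0161 with slide as a block), a call that median scaling and the absence of a filter ended. Its second probe gave -0.02 (SE 0.15; adjusted p = 0.964), so the fall was seen on 1 of the 2 Spry2 probes, and the difference between them was not tested. Spry2 was the only one called of 12 tested genes of the RAS-MAPK branch (median -0.05), and Foxo1 of 4 FOXO genes (median 0.72).

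Uncalled genes with the smallest p in each list stayed above the threshold of 0.05. In the list of ligands, binding proteins and related genes, Igf2bp2, which encodes an intracellular mRNA-binding protein, gave -0.55 (adjusted p = 0.0812) and Pappa, which encodes the protease that cuts IGFBP4, gave 0.71 (adjusted p = 0.0852). Among the adaptors Dok1 gave 0.39 (adjusted p = 0.131). In the PI3K-AKT branch Tbc1d4, the AKT substrate that holds back glucose transporter traffic, gave 0.36 (adjusted p = 0.0740), and Phlpp2, an AKT phosphatase gene, 0.19 (adjusted p = 0.136). In each of these 5 genes the exercised and sedentary ranges overlapped. In the mTORC1 branch the S6 kinase gene Rps6kb2 gave -0.28 (adjusted p = 0.152) and Mlst8 -0.23 (adjusted p = 0.219). In the RAS-MAPK branch Sos1, which loads RAS with GTP, gave -0.30 (adjusted p = 0.0832). Foxo3 gave 1.16 (0.46 to 1.86, limma adjusted p = 0.0748) on a probe well above background on 6 exercised and 3 sedentary arrays. Foxo4 gave 0.28 (limma adjusted p = 0.470) on a probe well above background on 5 exercised and 2 sedentary arrays. The median of the FOXO list lies between the values of these dim probes. A probe other than the lead probe was called for Pik3r1 (0.56, adjusted p = 0.0193), picked out after its value was seen.

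**Figure D4:**
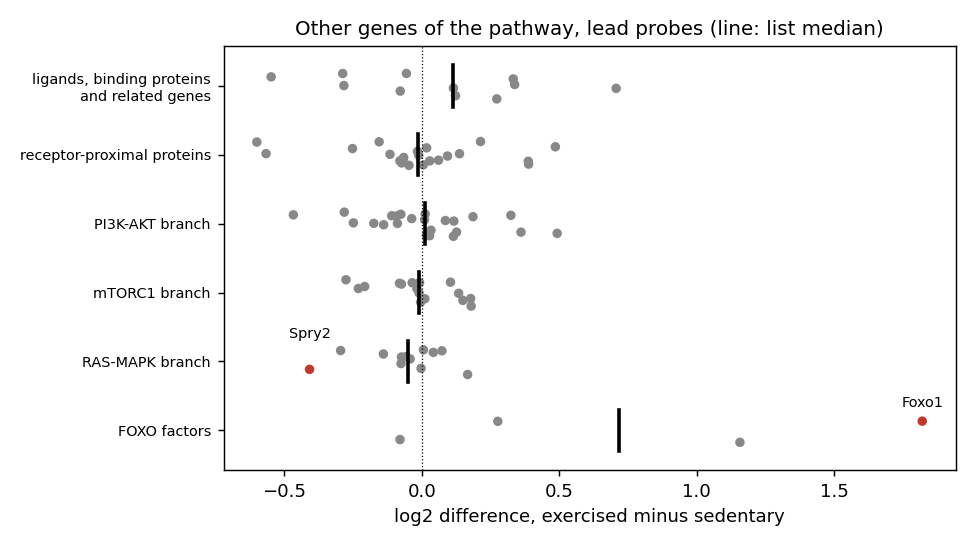
Difference in log2 level, exercised minus sedentary (horizontal axis), of the lead probe of each tested gene in 6 lists of the wider pathway; each point is a gene, vertical lines are list medians, points are spread vertically for legibility, and red points are called. Foxo1 (1.82) and Spry2 (-0.41) are the only called genes.

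The promoters of these genes, 250 bases before to 50 after each RefSeq start site (build GRCm38.p6), were searched for 2 short motifs on both strands. A promoter was found for 9 of the 10 genes, 13 windows in all, Irs2 included. The forkhead motif GTAAACA, or TGTTTAC on the other strand, was in 0 of the 13 windows and in 3.65% of all 32851. The insulin response motif CAAAACA, or TGTTTTG on the other strand, was in 2 of the 13 and in 6.28% of all. These were the windows of Irs1, chr1:82291390-82291689, and of Irs2, chr8:11008880-11009179, both on the minus strand. The matches are shown because both fall in IRS genes, with the motif in capitals, and they start at positions -111 and -32 of Irs1 and -37 of Irs2 counted from the start site.
Irs1 first match: gctccgtcacgTGTTTTGctcctctggagt
Irs1 second match: cagccgccgctTGTTTTGgttggggctctc
Irs2 match: gagtcacgtgtTGTTTTGctcttagttcag

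A match describes letters in a window and says nothing of binding. The array holds no value for Irs2 by the rule used, and Irs1 was not called.

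The genes whose level followed Igfbp4 most closely were Parp9 (r = 0.86), Rap1b (0.85), Lmnb2 (0.85), Rassf2 (0.83) and Gpc6 (0.81), as Pearson correlations over the 12 arrays after group means were removed, among 13104 genes. Igfbp4 was taken because no lead probe was called and its p was the smallest. None of these 5 genes was called between the groups (limma adjusted p from 0.125 for Rap1b to 0.942 for Parp9). They are the top of a long ranking over few arrays and are given as a description.

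Some markers of other cells differed between the groups. Of the tendon markers 9 of 9 were above 0, with a median difference of 0.91 and 0 called, and their summed level ran from 65.8 to 168 in exercised and from 29.0 to 86.1 in sedentary mice. Markers of fibroblasts, cells that secrete IGF-binding proteins, had a median of 0.09 with 0 of 10 called and sums of 361 to 576 against 303 to 562. Of 7 satellite cell and myoblast markers 6 passed the filter, with a median of -0.06 and 3 above 0. Among them Myog and Sdc4 were called higher. Pax7 (-0.34), Vcam1 (-0.15) and Cdh15 (-0.14) lay below 0 and were not called. The sums were 11.3 to 12.8 against 10.3 to 12.6, and Myf5 was not well above background on any array. Of 8 endothelial markers 1 was above 0, with a median of -0.26, and Kdr and Cldn5 were called lower (18.2 to 22.4 against 21.4 to 31.1). Of 8 smooth muscle and pericyte markers 4 were above 0, with a median of 0.03, and Myh11 and Cnn1 were called higher and Kcnj8 lower (712 to 827 against 703 to 849.6). This sum mostly follows Acta2, with mean log2 levels of 9.46 in exercised and 9.53 in sedentary mice. The next highest marker, Tagln, had 4.49 and 4.19. Of 5 brown adipocyte markers 3 passed the filter, with 0 called and sums of 5.43 to 52.7 in exercised against 2.01 to 25.8 in sedentary mice. Their median of 1.79 is the value of Cidea (limma adjusted p = 0.263). Ucp1 gave 4.35 (limma adjusted p = 0.185) and was well above background on 5 exercised and 2 sedentary arrays. Dio2 gave 0.18 (limma adjusted p = 0.779). Elovl3, not well above background on any array, and Otop1, on 2 exercised and 1 sedentary array, were not tested and differed by -0.07 and 0.86. Of 7 white adipocyte markers 6 were above 0, with a median of 0.36, 0 called and sums of 243 to 877 against 149.9 to 779.6. Of 7 macrophage markers 4 were above 0, with a median of 0.06, 0 called and sums of 61.6 to 94.9 against 42.0 to 106. The part of these shifts in the values of Igfbp4, Grb10 and Igf2 was not tested.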

How the data were processed

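Values came from the scanner text files that the authors deposited, as linear spot intensity. Agilent Feature Extraction made them, in version 10.5.1.1 per the file headers and in version 9.1 per the submitters' processing notes. The processed signal was already background-subtracted within each array. A deposited matrix with 41250 rows, which matched the processed signal within 0.1% for all single-spot probes, served as an alternative.

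Control spots and outlier-marked spots were left out, spots of a probe were averaged, and log2 of the intensity minus each array's 75th percentile was analysed. Probes well above background on at least 6 arrays were kept. Exercised was compared with sedentary in limma 3.58.1 (R 4.3.3) without a block. The fit was checked on simulated data. Probes were compared within a gene by exact permutation, 18 pairs in all. Named are all probes of the 10 genes and, of the 6 pathway lists, called genes and the 2 uncalled ones of smallest p, of which some are not reported here. Genes following a called member were to be named, or, with none called, those following the member of smallest p. The genes, lists and tests were chosen with earlier results of these data known. Alternatives were other scalings, background corrections, filters, blocks, variance models, the deposited matrix and each array left out. Probe positions are those of the array annotation (mm9).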

Additional observations from a re-analysis of the deposited data

Results flagged for a closer look

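Among 42 groups of 6 arrays (21 tested probes, 2 groups each), 4 held an array whose gap to the others was large for the range of its group by Dixon's ratio, which chance does in about 1 of 20 groups. At the Igf1 probe A_52_P306327 the exercised mouse 5 of set 1 was at -1.57, and the next highest exercised mouse at -3.65. At the Igf1r probe A_52_P634111 the exercised mouse 5 of set 2 was at -2.31, and the next at -3.04. At the second Irs1 probe, A_52_P171212, the sedentary mouse 2 of set 2 was at -1.12, and the next at -2.06. At the Igfbp3 probe A_51_P228472 the exercised mouse 4 of set 2 was the lowest at -5.52, with the next at -4.37. None of these is a lead probe or was called, and no lead probe had such an array. The cause was not tested.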

How the results depend on the processing

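No alternative called any of the 9 lead probes (261 values) or any of the 20 uncalled probes (566 values). The one called probe, of Grb10, was higher in all 28 alternatives and called in 12. The count of called probes of these genes was 0 with median scaling, normexp, subtraction of the local background, no filter, 1 row per gene, slide as a block, within slides 1, 2 and 3, and with the replicate block, and 0 to 1 with single arrays left out. Over all probes 760 were called; the count was 0 with normexp, 394 with no filter, 443 with slide as a block, 0, 10 and 0 within slides 1, 2 and 3, 34 with the replicate block, 1281 at an adjusted p below 0.10, and 520 to 706 with single arrays left out. Of 4 numbers shared between the groups the paired deviations correlated at 0.14, -0.18, 0.09 and 0.24, so the numbers were not taken as pairs; under the replicate block the Grb10 probe gave 0.34 (limma adjusted p = 0.397). Normexp fitted a background mean from -1940 to -577 on 4 arrays and from -1.12 to 3.10 on the others, and 142 probes had an unadjusted p below 0.05 there. Subtraction of the local background, added after this was seen, called 638 and gave the Grb10 probe 0.24 (adjusted p = 0.0758). The RAS-MAPK call was 0 with median scaling, normexp, no filter, within each slide and with the replicate block, and 2 at 0.10 (1 to 2 with arrays left out). The FOXO call was 0 with normexp and within each slide, and 2 at 0.10 (1 to 2). Ligands, binding proteins and related genes reached 2 and the PI3K-AKT branch 1 at 0.10. With arrays left out both ranged from 0 to 1, as did the receptor-proximal list, and the interaction test from 0 to 24. Probes well above background on few arrays (the fourth Igf1 probe, AK044980 of Igf1r and the second of Igfbp3) have wide intervals, and the number of arrays limits what can be told apart.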
